A study of Mus musculus with 12 samples.

Results

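The circadian clock genes Per1, Per2, Per3, Cry1, Cry2, Nr1d1, Nr1d2, Dbp, Tef and Arntl were followed through 12 RNA-seq libraries of primary mouse embryonic fibroblasts (MEFs). They were taken by mouse gene symbol from the Ensembl gene identifiers in the count files. All 10 were found, each under 1 identifier, among 37991 identifiers, and all 10 passed the filter on low counts with 15327 genes tested. The cells carried either wild-type E2f1 (WT) or the E2f1 3KR/3KR knock-in (3KR), which replaces the acetylated lysines of the E2F1 protein by arginine in every cell. Both genotypes were labelled FVB and grown at 5% O2 from embryos of 13.5 days. At passage 3 they were left untreated or were given neocarzinostatin (NCS), a radiomimetic drug that breaks DNA, at 250 ng/ml for 3 h, and each of the 4 groups held 3 samples. Which embryos or litters the samples came from was not given in the sources used here, so p-values measure the spread between these samples. The cultures were harvested at 1 time after NCS, and no synchronization of their clocks was described, so levels are averages over cells of unknown phase.

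The clock of mammalian cells is a loop of transcription and repression. BMAL1, encoded by Arntl, pairs with CLOCK or NPAS2 and binds E-box sequences in front of the Per, Cry, Nr1d and Dbp genes. The PER and CRY proteins then block that pair, while the REV-ERB proteins, encoded by Nr1d1 and Nr1d2, repress Arntl through ROR elements. DBP and TEF bind D-boxes and pass the rhythm on to output genes. Fibroblasts in culture keep such clocks, each cell in its own phase unless a stimulus sets them together.

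The libraries held between 33203757 and 45279321 counted reads. Replicate 3 of the WT cultures stood apart from replicates 1 and 2. Pairs that held it had a mean chi-square of 7.34 to 9.14 over the tested genes, where the other replicate pairs reached 2.29 at most. Results for WT are therefore also given without these 2 samples where a call changed. The female-specific RNA Xist had 30600 to 35600 normalized counts in 3KR samples and 32.3 to 62.5 in WT samples, while the Y-linked gene Ddx3y had 7 to 16.2 and 5370 to 5820. Sex and genotype of the cells thus cannot be told apart in any comparison of 3KR with WT. The targeted gene E2f1 did not pass the test between genotypes (log2 fold change -0.03 untreated and -0.02 after NCS, edgeR FDR 0.71 and 0.863), and a count of reads per gene does not show the exchanged codons. Markers of fibroblasts summed to 56900 to 62700 CPM (counts scaled to the library total) in every group. In 3KR against WT cells, 6 of 8 were higher and 2 lower untreated, beside 22.1% and 23.6% of all genes tested. After NCS 5 were higher and 2 lower, beside 22.9% and 23.6% of all genes. Pdgfra (1.67 and 1.5) and Fn1 (-0.35 and -0.49) were furthest from 0 in each direction. The marker counts that follow stand beside the same shares. Macrophage markers summed to 78.6 to 100 CPM in WT and 143 to 157 CPM in 3KR samples, with 5 of 5 higher in 3KR at both treatments. Schwann cell markers summed to 86.4 to 92.2 CPM in WT and 14.7 to 17.8 CPM in 3KR samples, with 2 of 4, Sox10 among them, lower in 3KR and 2 not past the test. Epithelial markers stayed at 3.19 CPM or less and endothelial markers at 0.812 CPM or less, and no marker was at or under 3 counts in every sample of a group. The 3 epithelial markers tested passed at both treatments, with Krt8 (2.38 and 1.64) and Cdh1 (2.33 and 2.95) higher and Krt18 (-0.60 and -0.61) lower in 3KR. The part of these cells in the genotype differences was not tested, and in bulk RNA fewer cells of a type and less RNA per cell cannot be told apart.

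The promoter windows of the clock genes were searched for the sequences through which the loop is known to work, since the genes moved in different directions. RefSeq (GRCm38.p6) gave 12 windows, from 250 bases before to 50 after a transcription start, for 9 of the 10 genes, and Per2 had no entry. Both strands were searched for the E-box CACGTG, the E'-box CACGTT, the D-box TTATGTAA or TTATGCAA and the ROR element core TAGGTCA or TGGGTCA. The CRE TGACGTCA, the E2F site TTTCGCGC, TTTGGCGC, TTTCCCGC or TTTGCCGC and the full p53 element without spacer were also searched. Of 32851 windows of this length, 7.15% held the E-box, 4.68% the E'-box, 1.66% a D-box, 6.45% a ROR element core, 1.79% the CRE, 2.26% an E2F site and 0.00913% the p53 element. At least 1 motif was found for 7 of the 9 genes. Some of these genes had more than 1 window, and the share of all genes with any of the motifs was not computed, so this count has no background beside it. Capitals mark the motif, which for every E'-box shown is read as its reverse complement, and positions count from the start, the base before it being -1.
Per1, E-box: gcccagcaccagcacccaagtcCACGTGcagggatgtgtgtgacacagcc
Per1, D-box: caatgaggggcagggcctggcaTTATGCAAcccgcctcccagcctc
Per3, first D-box: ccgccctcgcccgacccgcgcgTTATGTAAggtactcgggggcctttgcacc
Per3, second D-box: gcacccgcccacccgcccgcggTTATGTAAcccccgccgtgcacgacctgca
Cry1, E'-box (left) and E-box (right): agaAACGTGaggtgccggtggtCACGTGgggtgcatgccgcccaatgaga
Cry2, E'-box: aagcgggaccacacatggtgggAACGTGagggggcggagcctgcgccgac
Nr1d1, E'-box: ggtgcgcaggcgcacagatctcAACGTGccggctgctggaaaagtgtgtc
Tef, E-box of the first start: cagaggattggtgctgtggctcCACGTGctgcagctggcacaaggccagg
Tef, E-box of the second start: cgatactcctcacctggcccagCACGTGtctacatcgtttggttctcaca
Arntl, ROR element core: gcagaaagTAGGTCAgggacggaggtgc

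The Per1 stretches lay at chr11:69098761-69098810 and chr11:69098903-69098948 on the plus strand, with the motifs at -166 and -24. Those of Per3 lay at chr4:151044841-151044892 and chr4:151044794-151044845 on the minus strand, with the D-boxes at -205 and -158. The Cry1 stretch was chr10:85185087-85185136 (minus strand, E-box at -60), that of Cry2 chr2:92434208-92434257 (minus strand, -166) and that of Nr1d1 chr11:98775378-98775427 (minus strand, -28). Tef had chr15:81802524-81802573 and chr15:81811254-81811303 (plus strand, -127 and -138), and Arntl had chr7:113207533-113207560 (plus strand, 31 after its second start). The Nr1d2 and Dbp windows held none of the searched letters, which says nothing of sites outside these windows, and the CRE, the E2F site and the p53 element were in no clock gene window.

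Corrected for exon length, the clock genes ran from Nr1d2 at the top of all 4 groups to Per2, Per3 and Dbp at the bottom. In untreated WT cells the mean ± SD (n = 3) fell from 8.97 ± 1.1 RPKM (reads per kilobase of exon, scaled to library size) for Nr1d2 through 7.62 ± 0.15 for Cry1, 6.84 ± 0.21 for Arntl and 6.16 ± 0.069 for Nr1d1. Tef (5.26 ± 0.36 RPKM) and Per1 (4.87 ± 0.3) followed with overlapping samples, then Cry2 at 3.47 ± 0.22. Per2 had 1.27 ± 0.059 RPKM, and Per3 (1.12 ± 0.088) and Dbp (1.06 ± 0.19) overlapped at the end of the order. In 3KR cells Nr1d1 was the next highest after Nr1d2, at 8.09 ± 0.48 RPKM untreated and 10.4 ± 0.67 after NCS. Cry1, which ranked just below Nr1d2 in untreated WT cells, stood at 6.07 ± 0.16 RPKM in NCS-treated 3KR cells, where it overlapped with Per1 (6.45 ± 0.25). After NCS, Arntl (9.51 ± 0.57 RPKM) overlapped with Nr1d2 (10.1 ± 0.96) in WT cells, and Tef (8.29 ± 0.31) with Arntl (8.28 ± 0.28) in 3KR cells. In untreated 3KR cells the samples of Dbp overlapped with those of Per2, and Per2 with Per3, while Dbp (1.6 to 1.92 RPKM) lay above Per3 (1.39 to 1.57) without overlap. After NCS the samples of all 3 overlapped in 3KR cells. The smallest raw count behind any of these values was 96 reads, for Dbp in 1 NCS-treated WT sample, so counting error weighs most on Dbp.

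**Figure D1:**
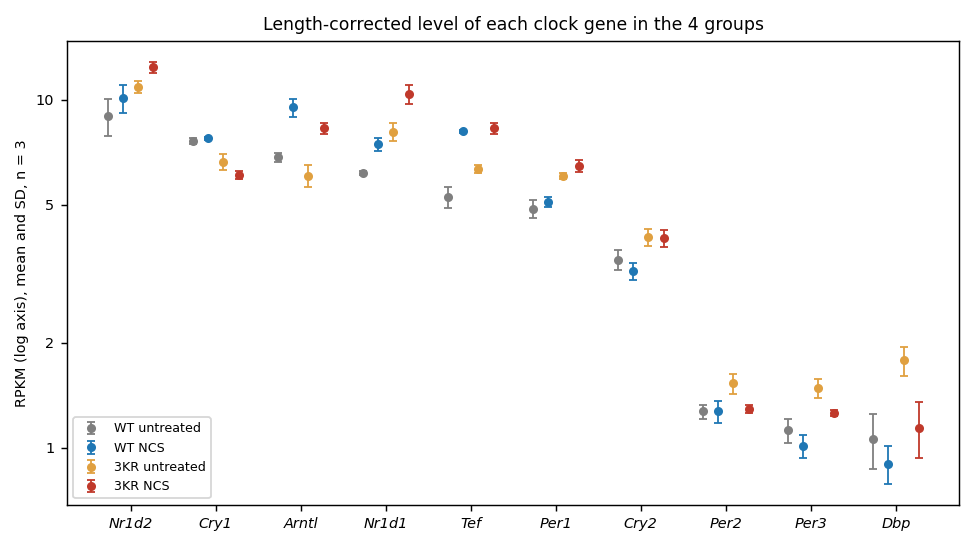
Mean and SD (n = 3) of the length-corrected level of each clock gene, in RPKM on a log axis, with 1 colour for each of the 4 groups and genes ordered by their level in untreated WT cells. Nr1d2 was highest in every group (8.97 to 12.4 RPKM), and Per2, Per3 and Dbp lay at or under 1.78 RPKM.

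NCS raised Tef, Arntl and Nr1d1 in WT cells, with no lower call. In total 3 of 10 clock genes passed the test (edgeR quasi-likelihood test, Benjamini-Hochberg FDR below 0.05 over all genes tested), where 26.7% of all genes tested did (14.3% higher and 12.4% lower). No clock gene was lower at an unadjusted p below 0.05 or by DESeq2 either. The groups did not overlap for the same 3 genes, against 35.1% of all genes. The median log2 fold change of the 10 genes was 0.05, beside 0.01 for all genes. In 3KR cells 7 of 10 clock genes passed, against 30.8% of all genes (15.8% higher and 15% lower): Nr1d1, Nr1d2, Tef and Arntl were higher after NCS and Per2, Per3 and Dbp lower. Groups did not overlap for 9 of the 10, against 47.6% of all genes, and the median was 0.04 beside 0 for all genes. With 1 sample left out, the count in 3KR cells lay between 4 and 7. It was 4 without untreated replicate 1 or 2 or NCS replicate 1 or 3, when Per2, Per3 and Nr1d2 missed the threshold. A test of the difference between the 2 responses called 1 of 10 clock genes, Tef, beside 3.73% of all genes tested (1.86% higher and 1.87% lower), and 16.3% of all genes had an unadjusted p below 0.05.

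Between genotypes, all 10 clock genes passed the test in untreated cells, against 45.7% of all genes tested. The 8 that were higher in 3KR cells were Per1, Per2, Per3, Cry2, Nr1d1, Nr1d2, Dbp and Tef, and the 2 lower were Cry1 and Arntl. Higher calls made up 22.1% and lower calls 23.6% of all genes. Samples of the genotypes did not overlap for any of the 10, against 53.5% of all genes, and the median log2 fold change was 0.27 beside 0. After NCS, 7 of 10 passed, against 46.5% of all genes (22.9% higher and 23.6% lower). Per1, Per3, Cry2, Nr1d1 and Nr1d2 were higher in 3KR cells and Cry1 and Arntl lower, while Per2, Dbp and Tef did not pass. The same 7 genes had no overlap between genotypes, against 54.3% of all genes, and the median was 0.30 beside 0. Each NCS response shares its untreated samples with the untreated genotype comparison, so the 2 kinds of comparison are not independent.

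**Figure D2:**
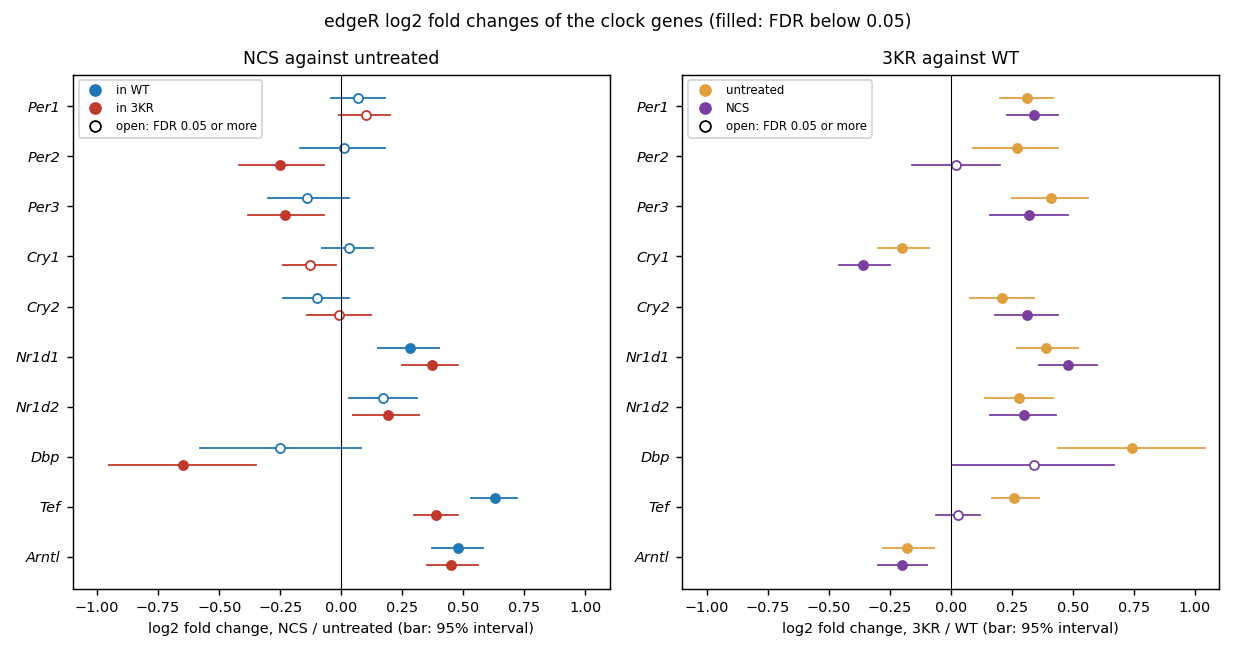
edgeR log2 fold changes of the clock genes with 95% intervals, for NCS against untreated (left, WT and 3KR) and 3KR against WT (right, untreated and NCS), with filled points for FDR below 0.05 and open points otherwise. Tef and Arntl rose after NCS in both genotypes, and Cry1 and Arntl lay below 0 in both genotype comparisons, where the other points lay above 0.

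The period genes Per1 (ENSMUSG00000020893, chr11:69095217-69109960), Per2 (ENSMUSG00000055866, chr1:91415982-91459324) and Per3 (ENSMUSG00000028957, chr4:151003652-151044665, GRCm38 like the gene positions that follow) encode the repressors of the BMAL1 complex. Per1, which also answers to glucocorticoid and cyclic AMP signals, had 1023, 994 and 1117 normalized counts in untreated WT replicates 1 to 3 and 1117, 1055 and 1121 after NCS. The 3KR replicates had 1323, 1303 and 1275 untreated and 1421, 1415 and 1325 after NCS. All 6 samples of 3KR lay above all 6 of WT. The log2 fold change between genotypes was 0.31 ± 0.051 (SE) untreated and 0.34 ± 0.051 after NCS (edgeR FDR 2.46e-05 and 8.47e-06), that is 1.24-fold and 1.26-fold. The NCS response of Per1 did not pass in WT (0.07, 95% interval -0.04 to 0.18, edgeR FDR 0.379) or in 3KR (0.10, -0.01 to 0.20, edgeR FDR 0.167).

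Per2, whose loss disturbs the daily rhythm of mouse behaviour, was less abundant than Per1 per exon length. It had 273, 298 and 278 normalized counts in untreated WT replicates and 306, 265 and 284 after NCS. In 3KR replicates it had 364, 345 and 317 untreated and 296, 282 and 285 after NCS, so that only the untreated 3KR samples stood above the rest. The log2 fold change of 3KR against WT was 0.27 ± 0.085 untreated (edgeR FDR 0.0123) and 0.02 after NCS (95% interval -0.16 to 0.20, edgeR FDR 0.894). The untreated call was lost without untreated WT replicate 1 (0.24, edgeR FDR 0.0504) or untreated 3KR replicate 1 (0.22, edgeR FDR 0.0671). NCS changed Per2 by 0.01 in WT (edgeR FDR 0.976) and by -0.25 ± 0.086 in 3KR cells (edgeR FDR 0.0328). The 3KR call was lost without untreated replicate 1 (edgeR FDR 0.139) or 2 (0.0773), or NCS replicate 1 (0.052), 2 (0.087) or 3 (0.082). The difference of the responses was -0.25 (95% interval -0.50 to 0, edgeR FDR 0.312).

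Per3, an output-like member of the family that the loop can run without, carried both D-boxes shown above. It had 373, 417 and 436 normalized counts in untreated WT replicates and 348, 361 and 404 after NCS. In 3KR replicates the counts were 577, 541 and 510 untreated and 453, 472 and 464 after NCS. Every 3KR sample was above every WT sample, and within 3KR every NCS sample was below every untreated one. Per3 was 1.33-fold higher in untreated 3KR cells (log2 0.41 ± 0.076, edgeR FDR 9.92e-05) and 1.25-fold higher after NCS (0.32 ± 0.079, edgeR FDR 0.00189). Its NCS response was -0.14 in WT (edgeR FDR 0.22) and -0.23 ± 0.075 in 3KR (edgeR FDR 0.025). That call was lost without untreated 3KR replicate 1 (edgeR FDR 0.129) or 2 (0.0571) or NCS replicate 1 (0.0854) or 3 (0.0622). Per3 lies within Camta1 on the same strand, without shared exon bases, and Camta1 was lower in 3KR cells (-0.41 untreated and -0.29 after NCS, edgeR FDR 0.00212 and 0.0199), opposite to Per3.

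The cryptochromes Cry1 (ENSMUSG00000020038, chr10:85131700-85185064) and Cry2 (ENSMUSG00000068742, chr2:92403646-92434043), the partners of PER in repression, differed between genotypes in opposite directions. Cry1, the stronger repressor, had 967, 990 and 950 normalized counts in untreated WT replicates and 983, 982 and 1004 after NCS. It had 815, 831 and 896 in untreated 3KR replicates and 750, 790 and 782 after NCS, so that no 3KR sample reached a WT sample. The log2 fold change of 3KR against WT was -0.20 ± 0.051 untreated and -0.36 ± 0.053 after NCS (edgeR FDR 0.0029 and 5.74e-06), the latter 1.28-fold lower. NCS changed Cry1 by 0.03 in WT (95% interval -0.08 to 0.13, edgeR FDR 0.763). In 3KR cells the change was -0.13 (-0.24 to -0.02, edgeR FDR 0.066) with no overlap between groups. That result passed when library totals replaced TMM (edgeR FDR 0.0142), when only the 6 samples of 3KR were fitted (0.0458) or when WT replicate 3 was left out at both treatments (0.0426).

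Cry2 had 779, 882 and 847 normalized counts in untreated WT replicates and 737, 767 and 830 after NCS. The 3KR replicates had 948, 930 and 1034 untreated and 1030, 942 and 925 after NCS, again without overlap between genotypes. Cry2 was 1.16-fold higher in untreated 3KR cells (log2 0.21 ± 0.063, edgeR FDR 0.007) and 1.24-fold higher after NCS (0.31 ± 0.064, edgeR FDR 0.000291). The untreated call of Cry2 was lost without untreated WT replicate 1 (0.16, edgeR FDR 0.0578) or untreated 3KR replicate 3 (0.17, edgeR FDR 0.0619). Its NCS responses did not pass, at -0.10 in WT (95% interval -0.24 to 0.03, edgeR FDR 0.254) and -0.01 in 3KR (-0.14 to 0.12, edgeR FDR 0.955). D930015M05Rik, which shares 295 exon bases with Cry2 on the other strand, had at most 23.9 normalized counts in any sample.

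**Figure D3:**
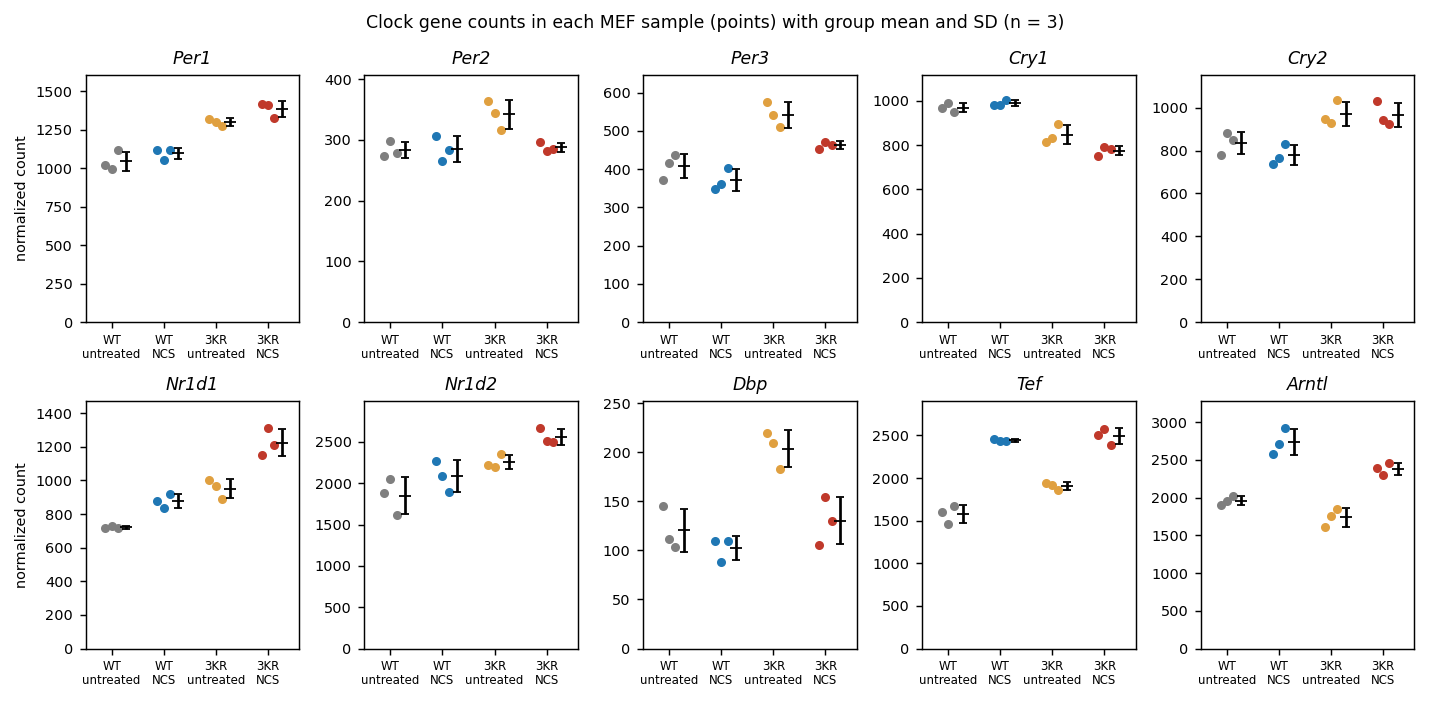
Normalized counts of each clock gene in every sample (points, replicates 1 to 3 from left to right) with the mean and SD of each group (n = 3), on axes that start at 0. The 3KR points lie above the WT points of the same treatment for Per1, Per3, Cry2, Nr1d1 and Nr1d2 and below them for Cry1 and Arntl, and NCS points lie above untreated ones for Tef and Arntl.

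The REV-ERB genes Nr1d1 (ENSMUSG00000020889, chr11:98767932-98775333) and Nr1d2 (ENSMUSG00000021775, chr14:18204054-18239127) encode the heme-binding nuclear receptors that repress Arntl. Nr1d1 had 716, 731 and 717 normalized counts in untreated WT replicates and 877, 837 and 918 after NCS. In 3KR replicates it had 1000, 965 and 890 untreated and 1152, 1310 and 1214 after NCS. Nr1d1 was thus lowest in all untreated WT samples and highest in all NCS-treated 3KR samples, with no overlap between the groups of any comparison. NCS raised it 1.21-fold in WT (log2 0.28 ± 0.06, edgeR FDR 0.00114) and 1.29-fold in 3KR cells (0.37 ± 0.057, edgeR FDR 2.59e-05). The genotypes differed by 0.39 ± 0.059 untreated and 0.48 ± 0.058 after NCS (edgeR FDR 7.56e-06 and 2.57e-07), and the responses differed by 0.09 (95% interval -0.08 to 0.26, edgeR FDR 0.66).

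Nr1d1 overlaps Thra, the thyroid hormone receptor alpha gene, tail to tail on the opposite strand, with 263 shared exon bases. The kit was stranded, but the strand setting of the counting was not given in the sources used here, so a part of either count could come from the other gene. Thra had 1760 to 2086 normalized counts over all 12 samples. Its log2 fold change was 0.11 after NCS in WT and -0.09 in 3KR cells (edgeR FDR 0.0639 and 0.107). Between genotypes it was 0.09 untreated and -0.12 after NCS (edgeR FDR 0.102 and 0.0329), so its call after NCS was opposite to that of Nr1d1.

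Nr1d2, the more abundant of the pair, had 1884, 2052 and 1610 normalized counts in untreated WT replicates and 2274, 2091 and 1893 after NCS. In 3KR replicates it had 2215, 2198 and 2350 untreated and 2671, 2512 and 2498 after NCS. WT replicate 3 was the lowest of its group at both treatments, and the WT treatments overlapped. Nr1d2 was 1.21-fold higher in untreated 3KR cells (log2 0.28 ± 0.067, edgeR FDR 0.00134) and 1.23-fold higher after NCS (0.30 ± 0.066, edgeR FDR 0.000733). NCS changed it by 0.17 ± 0.067 in WT cells (edgeR FDR 0.0664). With same-numbered untreated and NCS samples paired within each genotype, the change in WT was 0.17 with an edgeR FDR of 0.0015. The numbers were not shown to mark shared cultures in 3KR or for WT replicates 1 and 2. The WT change also passed without WT replicate 3 at both treatments (0.15, edgeR FDR 0.00753), without untreated WT replicate 2 (0.25, edgeR FDR 0.0103) or without WT NCS replicate 3 (0.23, edgeR FDR 0.0087). In 3KR cells the change was 0.19 ± 0.066 (edgeR FDR 0.0353). It missed the threshold without untreated 3KR replicate 1 (edgeR FDR 0.108) or 2 (0.118), without NCS replicate 1 (0.157), 2 (0.0613) or 3 (0.0579), and with library totals (0.125). The responses of Nr1d2 differed by 0.02 (95% interval -0.18 to 0.21).

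Dbp (ENSMUSG00000059824, chr7:45705088-45710203) and Tef (ENSMUSG00000022389, chr15:81802421-81826863) encode PAR bZIP factors, the activators of D-box genes. Dbp, a direct target of BMAL1 and CLOCK and among the most strongly cycling transcripts of many tissues, had the lowest mean RPKM of the 10 in 3 of the 4 groups. It had 145, 112 and 104 normalized counts in untreated WT replicates and 110, 88.5 and 110 after NCS. In 3KR replicates it had 220, 209 and 183 untreated and 106, 154 and 130 after NCS. Only the untreated 3KR samples stood clear of the other groups. Dbp was 1.67-fold higher in untreated 3KR than WT cells (log2 0.74 ± 0.14, edgeR FDR 0.000176), the largest genotype difference among the 10 genes. NCS lowered it 1.57-fold in 3KR cells (-0.65 ± 0.15, edgeR FDR 0.00139). The change in WT was -0.25 (95% interval -0.58 to 0.08, edgeR FDR 0.269), and the difference of the responses was -0.40 (-0.84 to 0.05, edgeR FDR 0.372). After NCS, 3KR and WT differed by 0.34 ± 0.16 (edgeR FDR 0.0841). That comparison passed without 3KR NCS replicate 1 (0.47, edgeR FDR 0.0285) or without WT replicate 3 at both treatments (0.40, edgeR FDR 0.0385). Dbp shares 539 exon bases with Sphk2, the sphingosine kinase gene, on the opposite strand, and Sphk2 did not pass the test in any comparison (log2 fold changes -0.10 to 0.08).

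Tef gave the strongest NCS response among the clock genes in WT cells. It had 1598, 1463 and 1671 normalized counts in untreated WT replicates and 2463, 2433 and 2433 after NCS. In 3KR replicates it had 1942, 1914 and 1856 untreated and 2509, 2575 and 2391 after NCS. The genotypes were apart when untreated and overlapped after NCS. NCS raised Tef 1.54-fold in WT (log2 0.63 ± 0.045, edgeR FDR 2.71e-10) and 1.31-fold in 3KR cells (0.39 ± 0.045, edgeR FDR 4.22e-07). Untreated 3KR cells had 1.20-fold more Tef than WT cells (0.26 ± 0.046, edgeR FDR 4.75e-05), and after NCS the difference was 0.03 (95% interval -0.06 to 0.12, edgeR FDR 0.64). The rise was smaller in 3KR cells by 0.24 ± 0.064 on the log2 scale, that is a difference of -0.24 with an edgeR FDR of 0.0387. The difference of the responses missed the threshold when any one of 9 of the 12 samples was left out (edgeR FDR 0.0557 to 0.129), and passed without untreated or NCS-treated WT replicate 3 or 3KR NCS replicate 2. Without WT replicate 3 at both treatments it was -0.28 (edgeR FDR 0.000173).

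Arntl (ENSMUSG00000055116, chr7:113207465-113314126) encodes BMAL1, the activator that REV-ERB represses, and is the longest of the 10 genes at 106.66 kb, against 5.12 kb for Dbp. It had 1903, 1955 and 2019 normalized counts in untreated WT replicates and 2574, 2706 and 2917 after NCS. In 3KR replicates it had 1607, 1759 and 1854 untreated and 2388, 2297 and 2457 after NCS. NCS samples lay above untreated ones within and across genotypes, and 3KR samples lay below the WT samples of the same treatment. NCS raised Arntl 1.39-fold in WT (log2 0.48 ± 0.05, edgeR FDR 1.22e-07) and 1.37-fold in 3KR cells (0.45 ± 0.051, edgeR FDR 2.87e-07), with a difference of -0.02 (95% interval -0.17 to 0.13). It was lower in 3KR cells by 0.18 ± 0.051 untreated and by 0.20 ± 0.05 after NCS, that is -0.18 and -0.20 on the log2 scale (edgeR FDR 0.00733 and 0.0021). The untreated call was lost without untreated 3KR replicate 1 (-0.12, edgeR FDR 0.0764). Arntl and its repressor Nr1d1 thus differed in opposite directions between genotypes and rose together after NCS. The annotated antisense RNAs Gm45355 of Arntl and Gm17597 of Tef were not analysed here.

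**Figure D4:**
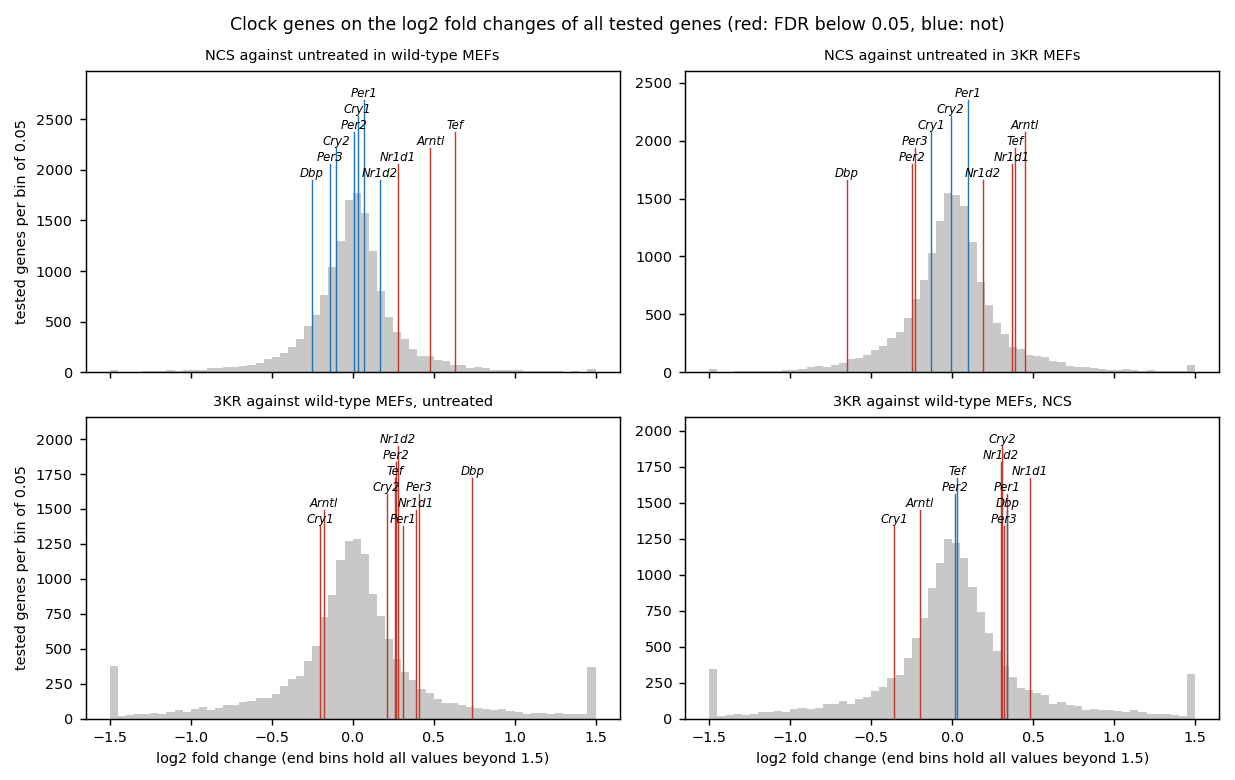
Log2 fold changes of all 15327 tested genes as grey histograms (genes per bin of 0.05) in the 4 comparisons, with a line for each clock gene, red where the FDR was below 0.05 and blue where it was not. In untreated 3KR against WT cells, 8 lines lie to the right of 0 and 2 to the left, and Dbp at 0.74 lies furthest out.

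Of the 3 genes with an E-box in the promoter window shown above, Per1 and Tef were higher and Cry1 lower in untreated 3KR cells. In the test of NCS against untreated cells, only Tef of these 3 passed, in both genotypes. Both E'-box genes without an E-box, Cry2 and Nr1d1, were higher in 3KR cells. Per1 and Per3, the D-box genes, were higher in 3KR cells at both treatments. Of all 10 clock genes, 8 were higher in untreated 3KR cells, among them Nr1d2 and Dbp, whose windows held no motif. A match describes the letters of the window, binding was not measured, and a link between motif and direction was not tested.

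A further 11 genes of the clock, mostly transcription factors, were tested. NCS changed 3 of them in each genotype, beside 26.7% of all genes in WT and 30.8% in 3KR cells. It raised 3 in WT cells: Bhlhe40 (log2 0.44) and Bhlhe41 (0.51), which encode the E-box repressors DEC1 and DEC2, and Rora (0.24), an activator of Arntl. In 3KR cells NCS raised Bhlhe40 (0.45) and Nfil3 (0.28), the D-box repressor, and lowered Npas2 (-0.66), a partner of BMAL1. Bhlhe40 had between 2830 and 3289 normalized counts untreated and between 4030 and 4282 after NCS in WT samples. In 3KR samples it had 3130 to 3169 untreated and 4240 to 4321 after NCS, so treatments did not overlap in either genotype. The responses differed for Bhlhe41 (-0.59, 3KR minus WT) and Nfil3 (0.26), so 2 of 11 passed that test, beside 3.73% of all genes. Nfil3 had 1980 to 2058 normalized counts in all 6 WT samples, 2100 to 2128 in untreated 3KR samples and 2490 to 2643 after NCS.

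In untreated cells 5 of these 11 genes differed between genotypes, beside 45.7% of all genes. Npas2 (1.43), Bhlhe41 (1.14), Timeless (0.46) and Rora (0.37) were higher in 3KR cells and Clock (-0.11) was lower. Npas2 had 46.6 to 71 normalized counts in untreated WT samples and 138 to 166 in untreated 3KR samples. After NCS, 8 of 11 differed, beside 46.5% of all genes. Npas2 (0.92), Bhlhe41 (0.55), Timeless (0.54), Nfil3 (0.34) and Rora (0.22) were higher in 3KR cells, and Clock (-0.18) was lower. Hlf (1.56), the third PAR bZIP gene, and Rorb (-1.72) also passed, at 1.03 to 23.3 and 3.1 to 25.9 normalized counts in all samples. The median log2 fold change of the 11 was -0.01 after NCS in either genotype, 0.12 between genotypes untreated and 0.22 after NCS.

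**Figure D5:**
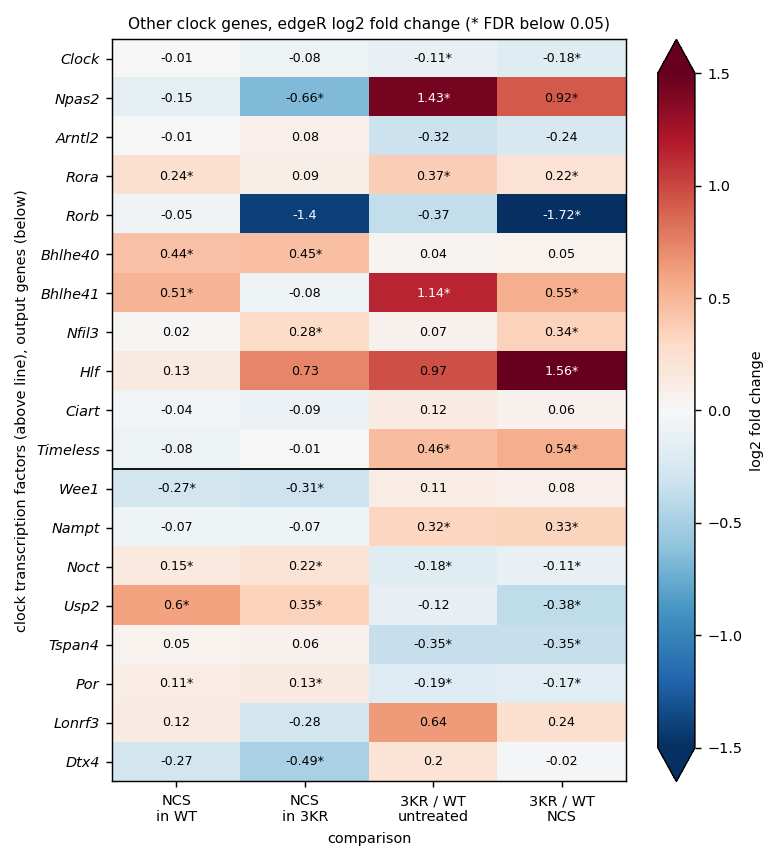
edgeR log2 fold changes of 11 other clock genes, mostly transcription factors, and 8 output genes in the 4 comparisons, as colour and number, with an asterisk for FDR below 0.05. Npas2 and Bhlhe41 are the factors with the most positive values in untreated 3KR against WT cells (1.43 and 1.14), and Bhlhe40 was raised by NCS in both genotypes (0.44 and 0.45).

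All 16 genes listed for kinases and turnover of clock proteins were tested. In untreated cells 7 were lower in 3KR and 1 higher, beside 23.6% of all genes lower and 22.1% higher. After NCS 6 were lower and 1 higher, beside 23.6% of all genes lower and 22.9% higher. The median log2 fold change of the 16 was -0.06 untreated and -0.08 after NCS. Csnk1e, the casein kinase that marks PER proteins for decay, was lower by -0.42 untreated and -0.22 after NCS, and NCS raised it by 0.19 in WT and 0.39 in 3KR cells. Fbxw11 (-0.36 and -0.38), Prkaa2 (-0.77 and -0.77), Prkaa1 (-0.18 and -0.18), Fbxl21 (-0.92 and -0.86) and Cul4a (-0.09 and -0.13) were lower in 3KR cells at both treatments, and Btrc (-0.19) when untreated. Fbxw11 and Btrc encode the ubiquitin ligase subunits that take up phosphorylated PER, and Prkaa1 and Prkaa2 the catalytic subunits of AMP kinase, which acts on CRY. Sirt1 (0.18) was higher in untreated 3KR cells and Nono (0.08) after NCS. NCS changed 4 of the 16 in WT and 5 in 3KR cells, beside 26.7% and 30.8% of all genes. NCS raised Prkaa2 by 0.53 in each genotype. It lowered Btrc (-0.21) in WT, and in 3KR cells it raised Ddb1 (0.09) and lowered Gsk3b (-0.12). In the edgeR test of the difference between responses 0 of the 16 passed, beside 3.73% of all genes, and DESeq2 called 0. An unadjusted p below 0.05 in the edgeR test was reached by 2 of the 16, beside 16.3% of all genes.

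Of 9 output genes of the clock, 8 were matched and tested, and Pnp was not analysed here. NCS changed 4 of the 8 in WT and 5 in 3KR cells, beside 26.7% and 30.8% of all genes. The genotypes differed for 4 of the 8 untreated and 5 after NCS, beside 45.7% and 46.5% of all genes. NCS raised Usp2, a rhythmic deubiquitinase gene, by 0.60 in WT and 0.35 in 3KR cells. It also raised Noct (0.15 and 0.22), a rhythmic phosphatase gene, and Por (0.11 and 0.13), the reductase partner of cytochromes P450. Wee1, the mitotic inhibitor kinase, fell by 0.27 in WT and by 0.31 in 3KR cells, and Dtx4 fell by 0.49 in 3KR cells. Between genotypes Nampt, the gene for the rate-limiting step of NAD salvage, was higher in 3KR cells by 0.32 untreated and 0.33 after NCS. Tspan4 (-0.35 and -0.35), Por (-0.19 and -0.17) and Noct (-0.18 and -0.11) were lower in 3KR cells, and Usp2 (-0.38) after NCS. For the difference between responses, edgeR and DESeq2 called 0 of the 8, beside 3.73% of all genes by edgeR. In the edgeR test 1 of the 8 had an unadjusted p below 0.05, beside 16.3% of all genes.

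Lists of other signals that reach Per1 and the REV-ERB genes were described in the same way. Their counts stand beside 26.7% of all genes called for NCS in WT, 30.8% for NCS in 3KR, 45.7% between genotypes untreated, 46.5% after NCS and 3.73% for the difference between responses. Of 10 immediate-early and CREB target genes, 4 rose and 3 fell after NCS in WT, and 5 rose and 1 fell in 3KR cells. Egr1 fell by 1.11 in WT and by 0.24 in 3KR cells, Fos changed by -0.55 and 0.20, and Nr4a1 rose by 0.66 and 0.76. In untreated cells 1 was higher in 3KR and 4 lower, and after NCS 4 were higher and 1 lower. The responses differed for 5 of the 10, each with a positive difference of 3KR minus WT. Egr1 (0.86), Fos (0.76) and Dusp1 (0.34) had the lowest p-values, and for Egr1 the difference was a smaller fall in 3KR. Of 6 glucocorticoid receptor target genes, 5 were tested, and Zbtb16 was not. Klf9 (0.32 and 0.32), Sgk1 (0.41 and 0.46), Ddit4 (0.66 and 0.47) and Tsc22d3 (0.16 and 0.13) were higher in 3KR cells at both treatments, and Fkbp5 did not pass. NCS raised 2 and lowered 1 of them in WT, and raised 3 and lowered 1 in 3KR cells, the lowered gene being Tsc22d3 (-0.41 and -0.44). The responses differed for Ddit4 (-0.19). Of 6 p53 target genes, 5 rose after NCS in either genotype, with Cdkn1a at 1.18 in WT and 1.34 in 3KR cells. They were lower in 3KR cells for 5 of 6 at both treatments, with 1 higher after NCS, and the responses differed for 2, Cdkn1a (0.16) and Ccng1 (0.34). The median log2 fold change of the p53 targets was 0.92 in WT and 1.15 in 3KR cells, against 0.05 and 0.04 for the clock genes.

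For Per1, Nr1d1, Dbp and Arntl, the genes of most similar pattern were found by Pearson r of log2 CPM over the 12 samples, among 11809 genes with a log2 CPM of at least 1. The points share the libraries and the 4 groups, so r mostly follows the group means and is a description. For Per1 they were Klf9 (r = 0.984), P3h1 (0.982) and Lrp5 (0.978). Nr1d1 was closest to Socs3 (0.977), Ece1 (0.977) and Ndrg1 (0.976), and Arntl to Rhbdf2 (0.980), Lif (0.978) and Kif21a (0.978). Dbp had lower values, with Nek4 (0.937), Lrrc61 (0.935) and Tbc1d31 (0.933). None of these neighbours was another clock gene.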

How the data were processed

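RNA-seq was done on 12 samples of primary MEFs, 3 in each of 4 groups, from total RNA with a stranded mRNA kit. The authors deposited raw read counts per Ensembl gene for each sample. Their processing notes name TopHat, HTSeq, DESeq and the mouse build mm9, and versions and the strand setting of the counting were not given in the sources used here. Symbols, exon lengths and positions came from GENCODE M21 (GRCm38), which matched 32919 of 37991 identifiers and left 5072 unmatched. Positions are therefore not those of the build used for counting.

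Counts were fitted with the edgeR 4.0.16 quasi-likelihood test in R 4.3.3, with TMM scaling, filterByExpr (minimum count 10), 1 coefficient per group over all 12 samples, two-sided tests and Benjamini-Hochberg adjustment over 15327 genes at 0.05. The common biological coefficient of variation was 3.95%. SE is the log2 fold change divided by the root of the F statistic. Normalized counts used DESeq2 1.42.0 size factors, as the study did, and RPKM used TMM library sizes and merged exon length. Totals ran from 33203757 to 45279321 reads. On these totals without TMM scaling, 3 reads, the floor that counting error allows for a count of 0, were 0.0663 to 0.0904 CPM. The fit was tested on simulated data.

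Deviations from group means over 11810 genes correlated by 0.144, 0.139 and 0.318 between same-numbered untreated and NCS samples of WT, and by -0.0979, -0.0877 and -0.0206 in 3KR. WT replicates 1 and 2 also correlated by 0.12 and 0.124 across numbers, so only WT replicate 3 was linked between treatments by its number. The labels do not give a pairing, and pairing by number was not shown for WT replicates 1 and 2 or for 3KR. The members and lists were chosen with earlier results of these data known. All 10 clock genes are named, of the other clock lists the genes that passed, of the remaining lists mainly the lowest p-values, the 3 genes nearest in pattern to 4 clock genes, and genes overlapping a clock gene. Some genes of the lists are not reported here. Alternatives changed the scaling, test, filter, samples fitted, block and samples left out. Leaving out WT replicate 3 at both treatments was chosen after seeing the data.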

Additional observations from a re-analysis of the deposited data

Results flagged for a closer look

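Tef was flagged because its NCS response differed between genotypes by a test of the difference itself, at -0.24 ± 0.064 (SE) on the log2 scale (3KR minus WT, edgeR FDR 0.0387). That call was lost when any 1 of 9 of the 12 samples was left out (edgeR FDR 0.0557 to 0.129). NCS raised Tef in both genotypes, by 0.63 in WT and by 0.39 in 3KR cells, and all 6 NCS samples were above all 6 untreated ones. After NCS the genotypes overlapped, at 2433 to 2463 normalized counts in WT and 2391 to 2575 in 3KR samples. The sex of the cells cannot be told apart from the genotype here, and neither its part nor that of the macrophage and Schwann cell markers was tested.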

How the results depend on the processing

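Over 750 values of the 10 clock genes in the 5 comparisons under the alternatives, 709 kept their side of the threshold, 30 lost and 11 gained the call. No value that passed in the main fit or the alternative changed direction. Some values near 0 that passed in neither did change sign, such as Cry1 after NCS in WT (-0.02 to 0.04). With 1 sample left out in turn, the number of clock genes called was 3 to 4 for NCS in WT, 4 to 7 for NCS in 3KR, 8 to 10 and 7 to 8 between genotypes untreated and after NCS, and 0 to 1 for the difference of the responses. The cause was not tested. Over all genes, the difference of the responses was called for 572, against 345 to 1159 with 1 sample left out. It was called for 1379 with same-numbered samples paired within each genotype and for 1842 without WT replicate 3 at both treatments. With that pairing, 4 clock genes were called after NCS in WT, where Nr1d2 was added. It called 7 in 3KR and 1 for the difference of the responses (Tef). With the replicate number as a block across genotypes, 10 and 7 clock genes were called between genotypes. Neither block changed another call. In 3KR samples, for WT replicates 1 and 2 and between genotypes, the numbers were not shown to mark shared cultures. Scaling by library totals moved the mean normalized count by more than 1 SD for Per1 in untreated 3KR (1333), Cry1 in NCS-treated WT (970.9), Nr1d1 in untreated WT (733.6) and Tef in NCS-treated WT and untreated 3KR (2397 and 1951). With the DESeq2 Wald test or without a filter Nr1d2 also passed for NCS in WT (adjusted p 0.0442 by DESeq2 and 0.0027 by edgeR), and without a filter Per2 missed in 3KR (edgeR FDR 0.0522). There were 3 samples a group at 1 time, without clock phase, and Dbp, with 96 to 218 reads a sample, had the largest SE of the 10 genes in each comparison.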
